A study of Mus musculus with 9 samples.

Results

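The endothelial genes described here are 38 genes of the vascular lining, chosen by symbol from the 55335 genes of the deposited count table: genes of endothelial identity, junctions and receptors, together with Apold1, an early response gene of endothelium. All 38 were present in the table and passed the filter on low counts that left 18259 genes for testing. Their transcripts were counted by RNA sequencing of leg muscle from 9 mice, all of WT genotype and of the strain written c57b6l in the labels. Every mouse, the controls included, had undergone a hindlimb model described as suspension with ischemia. There were 3 mice given aspirin with a peptide hydrogel (the hydrogel mice), 3 given aspirin, and 3 left untreated (the controls), each mouse giving 1 library. The labels give no age, sex, dose or time after injury. Neither uninjured muscle nor the hydrogel alone was analysed here.

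Endothelial cells line every blood vessel. They hold together through junction proteins such as VE-cadherin and claudin-5, and they read growth factors through the VEGF receptors and the TIE receptors. Their identity is kept by ETS and SOX family transcription factors. Skeletal muscle is dense in capillaries, so its RNA carries these transcripts beside a much larger share from muscle fibres. Apold1 encodes a protein with an apolipoprotein L domain and is known from rodents and cultured endothelium as a gene induced early by low oxygen, ischaemia and growth factors.

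Total counts ran from 32197791 to 48170537 per library, and the lowest count of any of the 38 genes in any library was 38. Levels are given as CPM, counts scaled to a common library size after TMM correction. On the first principal component, with 51.9% of the variance, Aspirin replicate 1 lay at -152 and Aspirin+hydrogel replicate 3 at 101, with the other 7 libraries between -49.2 and 39.2, so results are also given without these 2 libraries. Muscle fibre genes, the defining markers of the labelled tissue, were abundant in all 9 libraries, with 10 of 10 tested and summed levels of 169049 to 310245 CPM in the hydrogel mice, 23815 to 249629 CPM in the aspirin mice and 103352 to 220914 CPM in the controls. The lowest of these sums was that of Aspirin replicate 1. In bulk muscle, fewer endothelial cells and less RNA of these genes per cell cannot be told apart. Label codes differed between the groups throughout, so what the codes stand for cannot be told apart from treatment. Within the aspirin mice, replicate 3 carried a different code number from replicates 1 and 2.

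Most of the 38 genes were lower with aspirin than in the controls, and lay between these groups when the hydrogel was given too. Relative to the control mean, the median member stood at 80.5% in the hydrogel mice and at 55.2% in the aspirin mice. In 26 of 38 genes the group means ran in the order aspirin, hydrogel, control from low to high. Apold1 kept that order but was far below the controls in both treated groups: it stood at 27.4% in the hydrogel mice and 21.4% in the aspirin mice, the lowest percentage of any member in both groups. No member passed the adjusted threshold of 0.05 in edgeR's quasi-likelihood test in any comparison, so these are differences in level with their errors and not called changes.

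**Figure D1:**
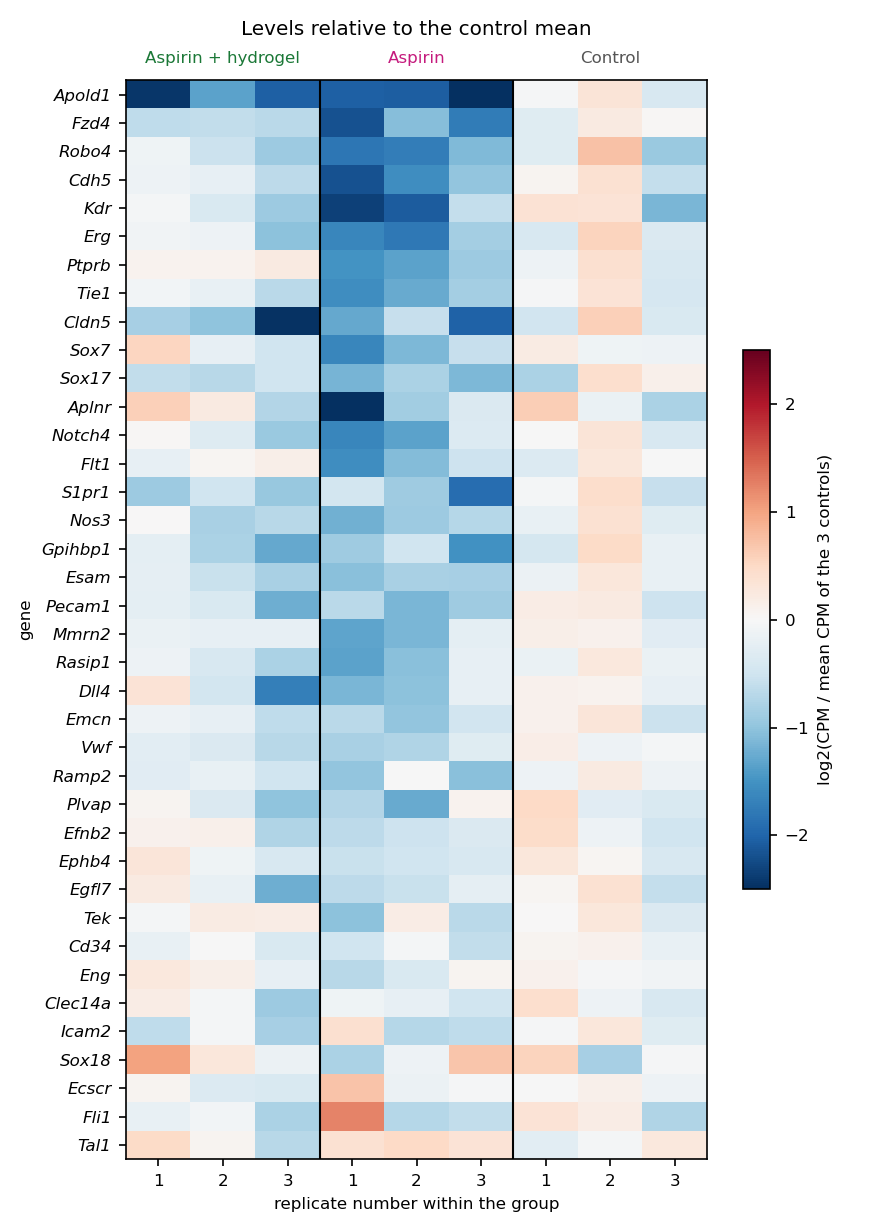
Colour shows log2 of each library's CPM over the mean CPM of the 3 controls for the 38 genes (rows, ordered by the fold change of aspirin against control), with 3 libraries a group in columns and colours cut at -2.5 and 2.5. The aspirin columns are mostly blue from the top to the middle of the map, the hydrogel columns are paler, and the Apold1 row is blue in all 6 libraries from mice given aspirin.

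Promoter windows of 3 members are shown because these are the genes with the smallest p in aspirin against control among the 20 members that RefSeq's table covers. Each runs from 250 bases before to 50 bases from the start site in RefSeq, on build GRCm38.p6, in the direction of the gene. The GENCODE annotation places the starts of these 3 genes further upstream. The Apold1 window lies wholly within the gene as GENCODE places it, so positions below hold for the RefSeq starts only. The windows lie at chr6:134981751-134982050, plus strand, for Apold1, at chr7:89404116-89404415, plus strand, for Fzd4, and at chr4:118489800-118490099, minus strand, for Tie1. Capitals mark every match, on either strand, to AGGAAG (a longer form of GGAA, the core bound by ETS factors), GGGCGG (the GC box) and TATAAA (the TATA box). Other GGAA matches are not marked.
Apold1: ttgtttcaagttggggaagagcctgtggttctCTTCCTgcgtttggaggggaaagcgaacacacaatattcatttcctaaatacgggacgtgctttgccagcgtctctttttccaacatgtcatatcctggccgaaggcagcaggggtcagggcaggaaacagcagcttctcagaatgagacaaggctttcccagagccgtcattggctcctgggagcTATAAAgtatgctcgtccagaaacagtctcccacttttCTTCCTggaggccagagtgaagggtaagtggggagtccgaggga
Fzd4: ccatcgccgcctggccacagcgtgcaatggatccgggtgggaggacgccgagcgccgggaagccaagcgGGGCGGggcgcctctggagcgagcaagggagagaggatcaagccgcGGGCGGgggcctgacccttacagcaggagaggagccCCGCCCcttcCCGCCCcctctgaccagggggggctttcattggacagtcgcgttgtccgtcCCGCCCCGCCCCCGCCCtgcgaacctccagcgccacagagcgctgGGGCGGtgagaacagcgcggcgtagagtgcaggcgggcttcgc
Tie1: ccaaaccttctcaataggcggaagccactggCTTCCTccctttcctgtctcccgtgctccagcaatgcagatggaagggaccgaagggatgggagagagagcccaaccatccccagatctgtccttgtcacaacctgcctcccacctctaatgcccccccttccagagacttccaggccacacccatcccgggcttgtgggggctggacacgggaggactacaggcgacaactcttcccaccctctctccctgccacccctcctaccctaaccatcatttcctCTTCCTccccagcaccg

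The Apold1 window held the TATA box starting at base -32 from the start site and AGGAAG on the minus strand at -218 and 7, counting the first transcribed base as 1. Tie1 also held AGGAAG on the minus strand, at -219 and 34. Fzd4 held neither AGGAAG nor TATAAA, and had 8 matches to the GC box, some of them overlapping. AGGAAG occurred in 12 of 25 member windows, against 35.4% of all 32851 windows. The GC box occurred in 10 of 25, against 35.7%, and the TATA box in 4 of 25, against 13.6%. A match of letters is not a measured binding site. Members whose windows were not in the table were Aplnr, Cdh5, Ecscr, Esam, Fli1, Gpihbp1, Icam2, Mmrn2, Nos3, Pecam1, Plvap, Ptprb, Ramp2, S1pr1, Sox17, Sox18, Sox7 and Vwf.

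Apold1 (ENSMUSG00000090698, chr6:134981718-134986836, plus strand, protein coding in GENCODE vM21 on mm10, with no exonic base shared with another gene) was counted in 129 to 1298 reads per library. It had 4.28, 9.07 and 5.57 CPM in the hydrogel mice, 5.63, 5.505 and 3.69 CPM in the aspirin mice and 22.6, 28.99 and 17.6 CPM in the controls. Every library from a mouse given aspirin, with or without hydrogel, lay below every control. The highest of these 6 libraries was Aspirin+hydrogel replicate 2 and the lowest control was replicate 3, and the hydrogel and aspirin libraries overlapped.

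The log2 fold change of Apold1 was -1.87 ± 0.34 (SE) in the hydrogel mice against the controls (95% interval -2.65 to -1.09, adjusted p = 0.987 in edgeR). In the aspirin mice against the controls it was -2.22 ± 0.35 (-3.01 to -1.43, adjusted p = 0.643 in edgeR). Both intervals lay below 0 although neither adjusted p passed. Between the hydrogel and aspirin mice the difference was 0.35 ± 0.34 (-0.41 to 1.11, adjusted p = 0.647 in edgeR), an interval that includes no difference and a difference of up to 1.11. DESeq2, run as an alternative on the same counts, gave adjusted p = 0.00624 for the hydrogel mice and 3.44e-05 for the aspirin mice against the controls, so Apold1 passed there and not in edgeR. Without the 2 libraries that stand apart the log2 fold change was -1.79 in the hydrogel mice and -2.32 in the aspirin mice against the controls.

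Cdh5 (ENSMUSG00000031871, chr8:104101625-104144511, plus strand) encodes VE-cadherin, the adhesion protein of endothelial junctions and the member with the highest level per length in the controls, at 34.7 ± 12.7 FPKM (SD, n = 3). Its levels were 143, 136 and 99.1 CPM in the hydrogel mice, 34.8, 53.1 and 79.02 CPM in the aspirin mice and 163, 203 and 104 CPM in the controls. All 3 aspirin libraries lay below all controls, whereas 2 of the 3 hydrogel libraries lay between the lowest and the highest control. The log2 fold change of Cdh5 was -0.31 ± 0.36 in the hydrogel mice (-1.13 to 0.51, adjusted p = 0.987 in edgeR) and -1.49 ± 0.37 in the aspirin mice (-2.33 to -0.65, adjusted p = 0.753 in edgeR), each against the controls. Between the hydrogel and aspirin mice it was 1.18 ± 0.37 (0.35 to 2.01, adjusted p = 0.453 in edgeR). DESeq2 gave adjusted p = 0.0357 for aspirin against control.

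**Figure D2:**
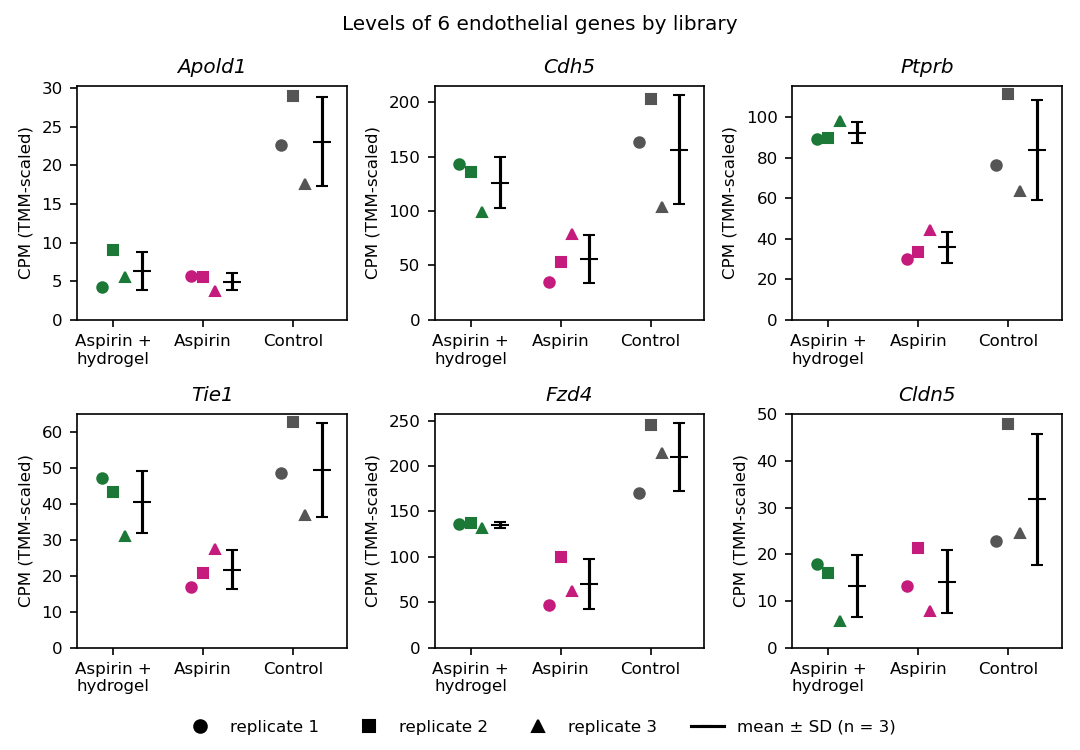
CPM (vertical axis, linear from 0) in each library of 6 members, with Aspirin+hydrogel left, Aspirin in the middle and Control right; markers are replicates and the black bars are the mean ± SD of 3. Apold1 sits at 3.69 to 9.07 CPM in both treated groups against 17.6 to 29.0 CPM in the controls, while Cdh5, Ptprb, Tie1 and Fzd4 are lowest in the aspirin mice.

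Whether Apold1 followed the other endothelial genes was asked within each library, as the log2 CPM of Apold1 minus the mean log2 CPM of the other 37 members. This gap was -2.58, -1.32 and -1.54 in the hydrogel mice, -1.26, -1.46 and -2.23 in the aspirin mice and -0.26, -0.08 and -0.28 in the controls. In the controls Apold1 thus stood near the average of the other members, and in all 6 libraries from mice given aspirin it stood further below them, with no overlap with the controls. The mean gap was -1.81 ± 0.68 in the hydrogel mice, -1.65 ± 0.51 in the aspirin mice and -0.20 ± 0.11 in the controls (SD, n = 3 each).

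The mean of the other 37 members itself was 4.41 ± 0.34 log2 CPM in the hydrogel mice, 3.94 ± 0.18 in the aspirin mice and 4.70 ± 0.27 in the controls. The other members were therefore nearer to the control level with hydrogel than with aspirin, while the gap of Apold1 below them overlapped between the hydrogel and aspirin mice. When every library was scaled by its 37 other members in place of TMM, the log2 fold change of Apold1 was -1.52 ± 0.40 in the hydrogel mice against the controls (-2.41 to -0.64, adjusted p = 0.827 in edgeR). In the aspirin mice against the controls it was -1.40 ± 0.40 (-2.28 to -0.52, adjusted p = 0.111 in edgeR). On that scale the hydrogel and aspirin mice differed in Apold1 by -0.13 ± 0.40 (-0.997 to 0.74, adjusted p = 0.876 in edgeR), with the sign turned from the TMM value.

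**Figure D3:**
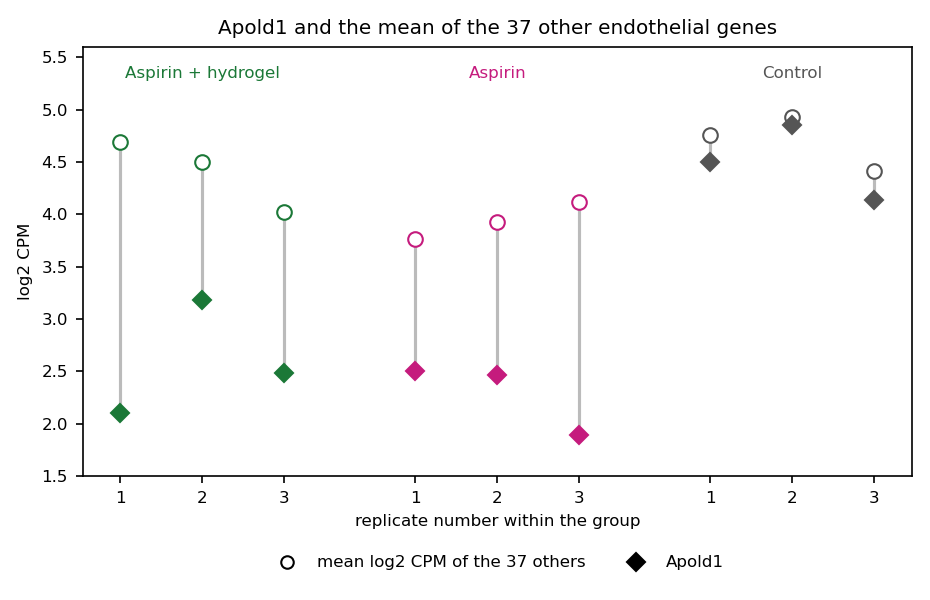
For each of the 9 libraries the filled diamond is the log2 CPM of Apold1 and the open circle the mean log2 CPM of the 37 other members, joined by a grey line. The line is short in the 3 controls (gaps of -0.08 to -0.28) and long in the 6 libraries from mice given aspirin (-1.26 to -2.58), while the circles of the hydrogel mice overlap those of the controls.

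Likeness to Apold1 was described by Spearman's rho of log2 CPM over the 9 libraries for 14572 genes averaging at least 1 CPM. The 37 other members had a median rho of 0.40, against -0.02 over all genes, and 34 of 37 lay above 0. The most alike member was S1pr1, the sphingosine-1-phosphate receptor of endothelium, at 0.88, and the least alike was Tal1, a transcription factor of blood and endothelium, at -0.58. Cdh5 and Tie1 each had 0.58. The libraries share their groups and their scaling, and Apold1 falls into 2 separate levels (controls against the others), so these values also carry that split.

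Within the 6 libraries from mice given aspirin, the Spearman correlation of Apold1 with Cdh5 was -0.09 (exact permutation p = 0.919, two-sided). Pearson's r there was 0.13 (exact permutation p = 0.804, two-sided). These 6 libraries are 2 groups that did not overlap in Cdh5, and the permutation ignored the groups. Both values therefore mix the step between the groups with differences inside them. Without the 2 libraries farthest from the median of Cdh5, r was 0.52, so it rests on few libraries. Over all 9 libraries the Spearman correlation of Apold1 with Cdh5 was 0.58 (exact permutation p = 0.108, two-sided). Pearson's r over the 9 was 0.60 (exact permutation p = 0.0889, two-sided), and both values also carry the split of the controls from the others. No other pair of genes was tested with both measures. Cdh5 ranked the 9 libraries in the same order as Tie1 (rho 1) and nearly the same as Robo4 (0.97), a description over the same libraries.

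The genes most alike to Apold1, leaving out predicted genes and pseudogenes, were Trpc1 (a cation channel subunit) with rho 0.97, Mtmr2 (a lipid phosphatase) and Pigb (a GPI-anchor enzyme) with 0.92, and 5 genes at 0.90. These 5 were Ccni, Gli3, Klhl2, Lnx2 and Nr4a2, the last an immediate early nuclear receptor. None is a member, and 0 genes passed the exact test after Benjamini-Hochberg adjustment. Of the 14572 genes, 109 had ties and were left out of that test. With 9 libraries the exact p takes few values, and a gene alone could not pass among this many, even in the same order as Apold1. Apold1 itself was among the genes compared and did not pass. The count of 0 therefore cannot decide whether a gene follows Apold1.

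In aspirin against control, 0 of 18259 genes passed edgeR's adjusted threshold (0% of genes, 0 of 38 members), 0 passed in limma-voom, and 1183 had an unadjusted p under 0.05. DESeq2 called 82 of the 20313 genes it adjusted (0.404%), and 4 members were among them: Apold1, Cdh5, Fzd4 and Ptprb. At an unadjusted p under 0.05, 22 of 38 members were lower, against 3.39% of all genes tested, and no member was higher. That count was 10 with libraries scaled by their size alone, 13 without Control replicate 1 and 12 without Control replicate 2. All aspirin libraries lay below all controls in 17 of 38 members, against 5.44% of all genes. By sign alone 34 members were lower with aspirin, and the median log2 fold change was -0.86 over the members and 0.05 over all genes tested. Without the 2 libraries that stand apart, 36 members were lower and the median was -0.70.

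Among the 9 junction and adhesion genes, all 9 were lower with aspirin, against 46.0% of all genes. Of these 9, 5 did not overlap the controls, against 5.44% of all genes below them without overlap. Ptprb, the phosphatase VE-PTP that acts on TIE2 and VE-cadherin, had 89.1, 89.6 and 98.3 CPM in the hydrogel mice, 29.8, 33.2 and 44.6 CPM in the aspirin mice and 76.6, 111 and 63.6 CPM in the controls. The aspirin mice were below both other groups in every library, and the hydrogel mice lay within the controls' range. Its log2 fold change was 0.14 ± 0.26 in the hydrogel mice (-0.45 to 0.73, adjusted p = 0.987 in edgeR) and -1.23 ± 0.26 in the aspirin mice (-1.82 to -0.63, adjusted p = 0.747 in edgeR; 0.0215 in DESeq2) against the controls.

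Esam, an adhesion molecule of endothelial tight junctions, had 32.1, 25.8 and 21.6 CPM in the hydrogel mice, 18.2, 21.6 and 21.3 CPM in the aspirin mice and 34.3, 45.97 and 33.04 CPM in the controls. Both treated groups lay below all controls, and the lowest hydrogel library was level with the aspirin libraries. Cldn5, claudin-5 of the tight junction, had 18.00, 15.9 and 5.71 CPM in the hydrogel mice, 13.1, 21.2 and 7.83 CPM in the aspirin mice and 22.9, 47.98 and 24.5 CPM in the controls. It was the only member other than Apold1 below 50% of control in the hydrogel mice, at 41.5% in the hydrogel mice and 44.2% in the aspirin mice, and Aspirin+hydrogel replicate 3 was its lowest library. The log2 fold change of Cldn5 against the controls was -1.27 ± 0.52 in the hydrogel mice and -1.18 ± 0.51 in the aspirin mice, and that of Esam was -0.51 ± 0.22 and -0.89 ± 0.22 in the same order of groups, all with adjusted p of 0.753 or more in edgeR.

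Pecam1, the CD31 adhesion molecule, had 114, 104 and 57.7 CPM in the hydrogel mice, 85.1, 61.1 and 72.8 CPM in the aspirin mice and 154, 157 and 94.9 CPM in the controls. Here the hydrogel and control libraries overlapped and the aspirin libraries lay below the controls. Emcn, endomucin of capillaries and veins, averaged 18.7 CPM in the hydrogel mice, 14.2 CPM in the aspirin mice and 23.2 CPM in the controls, with each treated group overlapping the controls. Cd34, Clec14a and Icam2, further surface proteins of endothelium, stood at 72.4% to 88.2% of control in the hydrogel mice and at 77.5% to 85.8% in the aspirin mice.

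Of the 11 receptors, 10 were lower with aspirin than in the controls (46.0% of all genes) and 4 of them without overlap (5.44% of all genes). Fzd4, the frizzled receptor for norrin and Wnt signals in vessels, had 136, 137 and 132 CPM in the hydrogel mice, 46.5, 100.3 and 62.1 CPM in the aspirin mice and 170.2, 245 and 214 CPM in the controls. The 3 groups did not overlap one another: controls were highest, hydrogel mice next and aspirin mice lowest. Its log2 fold change against the controls was -0.64 ± 0.31 in the hydrogel mice (-1.34 to 0.07, adjusted p = 0.987 in edgeR) and -1.59 ± 0.32 in the aspirin mice (-2.31 to -0.87, adjusted p = 0.747 in edgeR; 0.00168 in DESeq2).

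Tie1, the orphan TIE receptor, had 47.3, 43.4 and 30.9 CPM in the hydrogel mice, 16.8, 20.7 and 27.6 CPM in the aspirin mice and 48.6, 62.8 and 36.8 CPM in the controls. Aspirin libraries lay below both other groups, which overlapped. Its partner Tek, the angiopoietin receptor TIE2, averaged 33.7 CPM in the hydrogel mice, 23.3 CPM in the aspirin mice and 31.1 CPM in the controls, with overlap throughout. Flt1, VEGF receptor 1, had 35.4, 41.6 and 44.7 CPM in the hydrogel mice, 13.7, 19.02 and 28.4 CPM in the aspirin mice and 32.1, 49.4 and 40.02 CPM in the controls, again with aspirin below both other groups.

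Kdr, VEGF receptor 2, had 52.6, 41.8 and 28.9 CPM in the hydrogel mice, 10.9, 12.9 and 36.3 CPM in the aspirin mice and 70.1, 69.1 and 24.6 CPM in the controls. Its aspirin and control libraries overlapped: Control replicate 3 was below Aspirin replicate 3. Robo4, the endothelial roundabout receptor, had 18.4, 13.8 and 10.5 CPM in the hydrogel mice, 5.69, 6.02 and 9.26 CPM in the aspirin mice and 16.1, 33.1 and 10.4 CPM in the controls. The aspirin libraries of Robo4 were below both other groups, and Control replicate 2 stood above the other controls.

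S1pr1 had 37.2, 49.6 and 36.3 CPM in the hydrogel mice, 50.9, 38.02 and 18.6 CPM in the aspirin mice and 67.9, 95.2 and 46.8 CPM in the controls. Unlike Fzd4, Tie1 and Flt1, its hydrogel and aspirin libraries overlapped fully. Aplnr, the apelin receptor, ranged from 7.16 to 64.4 CPM over the 9 libraries and overlapped in every comparison. Eng (endoglin, a co-receptor for BMP and TGF-beta ligands), Ramp2 (the partner of the adrenomedullin receptor) and Ecscr (an endothelial surface protein) stood at 105%, 80.3% and 86.6% of control in the hydrogel mice. In the aspirin mice Eng was at 81.3% and Ramp2 at 66.1% of control, and Ecscr, at 117%, was 1 of the 4 members higher with aspirin by sign. Ecscr had 14.6, 8.08 and 8.75 CPM in the aspirin mice and 8.81, 9.74 and 8.23 CPM in the controls, so that sign came with the high value of Aspirin replicate 1, and 2 members were higher when that library was left out.

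Of the 6 transcription factors, Erg, Sox7 and Sox17 were lower with aspirin and Fli1, Sox18 and Tal1 were higher, by sign of the fold change. Erg, an ETS factor of endothelial identity, had 13.2, 12.8 and 6.87 CPM in the hydrogel mice, 4.56, 4.08 and 7.77 CPM in the aspirin mice and 10.6, 20.6 and 10.99 CPM in the controls. Sox7, a SOX factor of endothelium, had 10.7, 6.44 and 5.27 CPM in the hydrogel mice, 2.39, 3.42 and 4.97 CPM in the aspirin mice and 8.57, 6.86 and 6.84 CPM in the controls. In both genes all aspirin libraries lay below all controls, and the hydrogel libraries overlapped the controls.

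Sox17, an arterial SOX factor, was below the controls in the aspirin mice by a margin that vanishes in rounding, with 6.63, 6.32 and 7.24 CPM in the hydrogel mice, 4.54, 5.93 and 4.69 CPM in the aspirin mice and 5.93, 13.6 and 11.1 CPM in the controls. Fli1, an ETS factor also made by blood cells, had 16.9, 18.4 and 11.2 CPM in the hydrogel mice, 45.4, 11.8 and 12.5 CPM in the aspirin mice and 24.3, 21.96 and 11.5 CPM in the controls. The aspirin mean of Fli1 rested on Aspirin replicate 1, the library that stood apart. Tal1 was the only member whose aspirin libraries all lay above all controls, at 2.83, 2.15 and 1.27 CPM in the hydrogel mice, 2.65, 2.90 and 2.601 CPM in the aspirin mice and 1.70, 1.99 and 2.44 CPM in the controls. Sox18 spread from 4.74 to 17.1 CPM with overlap in all comparisons.

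The 4 Notch and ephrin genes were lower with aspirin by sign (46.0% of all genes), and 0 of 4 was free of overlap (5.44% of all genes). Notch4, the endothelial Notch receptor, averaged 15.2 ± 4.87 CPM in the hydrogel mice, 9.72 ± 4.89 CPM in the aspirin mice and 19.4 ± 4.79 CPM in the controls (SD, n = 3 each). Dll4, its ligand of arterial and tip cells, averaged 6.66, 5.26 and 8.68 CPM in the hydrogel, aspirin and control mice. The venous receptor Ephb4 and its arterial ligand Efnb2 stood at 97.2% and 92.0% of control in the hydrogel mice and at 71.5% and 70.1% in the aspirin mice.

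The secreted proteins Vwf, Egfl7 and Mmrn2 were lower with aspirin in 3 of 3 cases. Vwf, the clotting factor stored in Weibel-Palade bodies, had 24.3, 22.8 and 18.1 CPM in the hydrogel mice, 16.6, 17.3 and 23.5 CPM in the aspirin mice and 32.6, 26.7 and 28.2 CPM in the controls. Its controls stood above both treated groups in every library. Mmrn2, a matrix protein of endothelium, averaged 19.1 CPM in the hydrogel mice, 12.3 CPM in the aspirin mice and 21.9 CPM in the controls, with aspirin below hydrogel in every library. Egfl7, a secreted protein of endothelium, stood at 82.6% in the hydrogel mice and 72.6% in the aspirin mice, relative to the controls, and overlapped in every comparison.

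Of the 4 capillary and intracellular proteins, Nos3 (endothelial nitric oxide synthase), Gpihbp1 (the capillary anchor of lipoprotein lipase) and Rasip1 (a regulator of vessel lumen) did not overlap between aspirin and control. Over all genes, 5.44% were lower with aspirin without overlap. Nos3 had 17.4, 9.88 and 10.6 CPM in the hydrogel mice, 7.50, 9.18 and 10.6 CPM in the aspirin mice and 15.2, 22.4 and 14.05 CPM in the controls. Gpihbp1 had 42.04, 28.95 and 20.7 CPM in the hydrogel mice, 27.2, 35.7 and 17.6 CPM in the aspirin mice and 36.9, 69.5 and 43.9 CPM in the controls. Rasip1 stood at 75.2% in the hydrogel mice and 58.1% in the aspirin mice, relative to the controls. Plvap, the protein of capillary diaphragms, stood at 77.2% in the hydrogel mice and 69.5% in the aspirin mice and overlapped in every comparison, with Aspirin replicate 3 the highest of its aspirin libraries. For Ramp2, Nos3 and Rasip1 between 20.4% and 33.4% of exonic bases are shared with a single other gene, so their counts are less certain. That gene lies on the same strand for Ramp2 (Vps25) and Rasip1 (Izumo1), and on the opposite strand for Nos3 (Gm15587). Whether counting used strand is not given in the sources used here, which bears on opposite-strand overlaps only. In all, 10 of 38 members share some exonic bases with another gene.

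In the hydrogel mice against the controls, edgeR called 0 of 18259 genes (0% of genes, 0 of 38 members), limma-voom called 0, and 716 genes had an unadjusted p under 0.05. DESeq2 called 13 of the 31450 genes it adjusted (0.0413%), and the 1 member among them was Apold1. At an unadjusted p under 0.05, 3 members were lower (Apold1, Cldn5 and Esam), against 2.18% of all genes. Leaving out 1 library gave 1 to 5 members, with 1 without Aspirin+hydrogel replicate 3 or Control replicate 2 and 5 without Aspirin+hydrogel replicate 1. The hydrogel libraries lay below all controls in 6 members (Apold1, Cldn5, Esam, Fzd4, Ramp2 and Vwf), against 6.3% of all genes. By sign 30 of 38 were lower, with a median log2 fold change of -0.31 over the members and -0.03 over all genes. This median was -0.15 with 27 members lower when Aspirin+hydrogel replicate 3 was left out, -0.19 without Control replicate 2 and -0.50 without Control replicate 3. Without the 2 libraries that stand apart it was -0.13, with 27 members lower and 1 at an unadjusted p under 0.05. With libraries scaled by their size alone 37 of 38 were lower. Both hydrogel and aspirin mice are set against the same 3 controls, so the 2 comparisons are not independent.

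**Figure D4:**
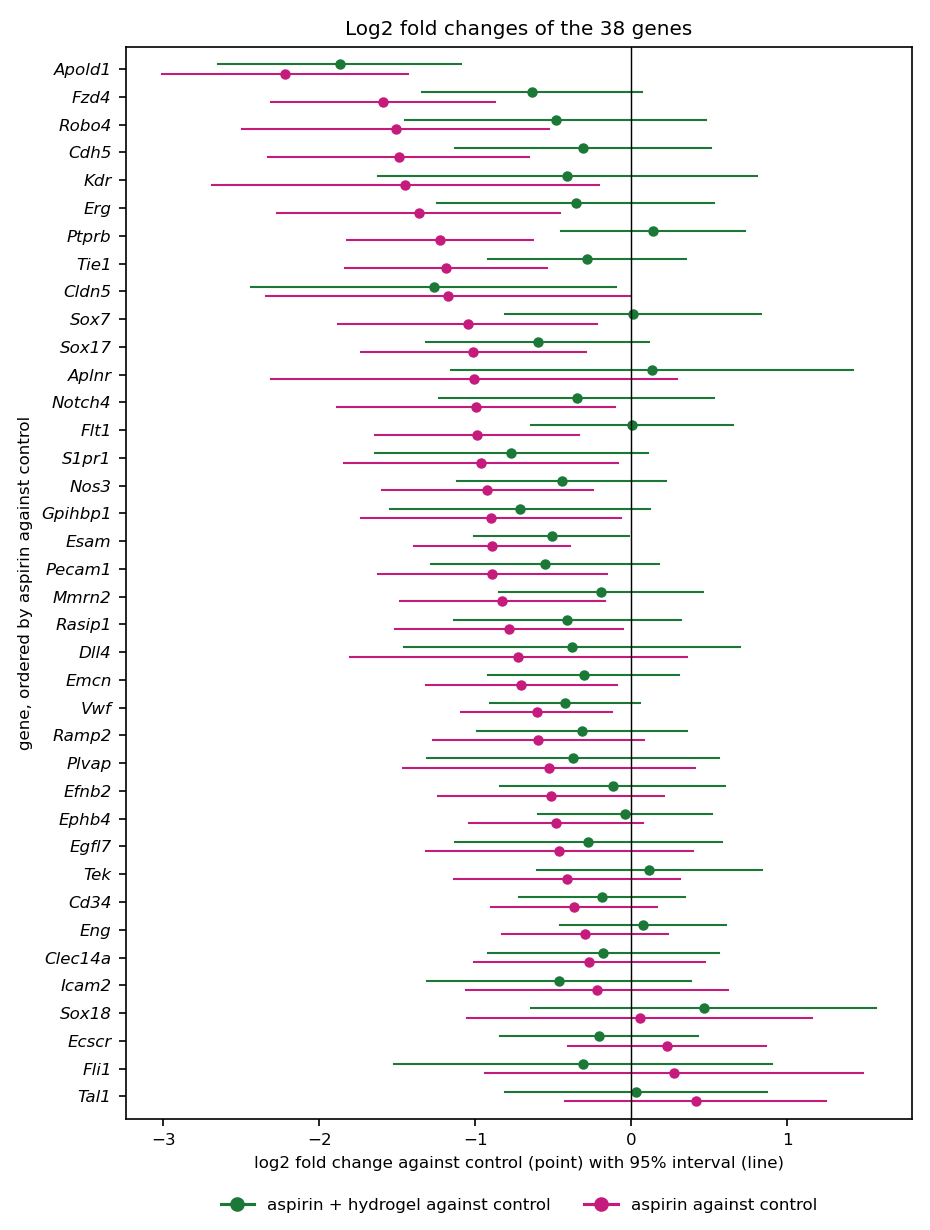
Log2 fold changes against the controls (points) with 95% intervals (lines) for the 38 genes, ordered from the lowest value in aspirin against control at the top. Apold1 is lowest in both comparisons and both its intervals lie below 0, while most green points (hydrogel) lie nearer to 0 than the pink points (aspirin) of the same gene.

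In the hydrogel mice against the aspirin mice, 33 of 38 members were higher, with a median log2 fold change of 0.39 over the members and -0.05 over all genes. With libraries scaled by their size alone, 20 were higher and 18 lower, and the median was 0.01 while that of all genes was -0.51. The members' median minus that of all genes was 0.44 with TMM and 0.53 with library size alone. edgeR called 0 genes (0% of genes, 0 of 38 members), limma-voom called 0, and 1996 genes had an unadjusted p under 0.05. DESeq2 called 147 of the 19101 genes it adjusted (0.77%), with 1 member, Ptprb (adjusted p = 0.00427 in DESeq2). At an unadjusted p under 0.05, 8 members were higher, against 3.32% of all genes. That count was 14 without Aspirin replicate 3, 5 without Aspirin+hydrogel replicate 1 and 3 with library size alone. The hydrogel libraries lay above all aspirin libraries in 10 members, against 7.46% of all genes.

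Ptprb had the largest fold change of this comparison among the members, at 1.36 ± 0.26 (0.77 to 1.96, adjusted p = 0.453 in edgeR). Of the other members with an unadjusted p under 0.05, Cdh5 was at 1.18, and Sox7, Robo4, Erg, Flt1, Fzd4 and Tie1 lay between 0.90 and 1.06. Apold1, at 0.35, ranked 16 of 38 from the lowest. Without the 2 libraries that stand apart 36 members were higher and the median was 0.50, and without Aspirin+hydrogel replicate 1 it was 0.27 with 28 higher.

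A list of 20 other endothelial genes was described beside the members. In the hydrogel mice against the controls 11 of 20 were lower with a median of -0.02, and in the aspirin mice against the controls 18 of 20 were lower with a median of -0.79. In the hydrogel mice against the aspirin mice 18 of 20 were higher with a median of 0.80. All hydrogel libraries lay above all aspirin libraries in 10 of them, against 7.46% of all genes. By sign, 52.9% of all genes were lower with hydrogel than in the controls, and 46.0% were lower with aspirin. Between hydrogel and aspirin, 46.7% of all genes were higher with hydrogel. 0 of 20 passed the adjusted threshold in edgeR in any of the 3 comparisons. Adgrf5, an adhesion receptor of capillaries, had 119.5, 117 and 96.7 CPM in the hydrogel mice, 31.4, 38.6 and 48.7 CPM in the aspirin mice and 88.7, 172 and 77.02 CPM in the controls. Its aspirin libraries lay below both other groups, as they did in Ptprm, an adhesion phosphatase, with 26.3, 27.1 and 25.3 CPM in the hydrogel mice, 8.01, 15.8 and 18.4 CPM in the aspirin mice and 33.8, 45.5 and 30.4 CPM in the controls.

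Of 15 ligands of the members' receptors 9 passed the filter on low counts, and Gdf2 and Bmp10 were at 0 in all libraries. By sign 6 of 9 were lower in the hydrogel mice (median -0.14) and 5 of 9 were lower in the aspirin mice (median -0.40, or -0.12 without Control replicate 2), each against the controls, and 0 of 9 passed the adjusted threshold in edgeR in any comparison. Vegfa, the ligand of Kdr and Flt1, had 116, 117 and 121 CPM in the hydrogel mice, 26.2, 68.2 and 96.3 CPM in the aspirin mice and 119, 192 and 73.2 CPM in the controls. The aspirin libraries of Vegfa lay below all hydrogel libraries and overlapped the controls. Angpt1, the ligand of Tek, had 13.3, 12.8 and 15.9 CPM in the hydrogel mice, 8.61, 9.60 and 12.7 CPM in the aspirin mice and 15.04, 20.4 and 10.8 CPM in the controls, with the same overlaps. These 2 ligands had the smallest p in aspirin against control. Pgf, a further ligand of Flt1, had the smallest p of the ligands in the hydrogel mice against the controls, with 1.04, 1.57 and 1.54 CPM in the hydrogel mice, 1.76, 2.08 and 1.86 CPM in the aspirin mice and 2.03, 5.94 and 2.09 CPM in the controls. Its hydrogel libraries lay below all aspirin and all control libraries.

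Of 8 venous and activation genes of endothelium 2 were lower by sign with aspirin than in the controls, and the median was 0.23. In the hydrogel mice 5 of 8 were lower than in the controls (median -0.33) and 5 of 8 lower than in the aspirin mice (median -0.63). Selp, the P-selectin that captures leukocytes, had the smallest p of these in aspirin against control, with 2.49, 2.72 and 1.64 CPM in the hydrogel mice, 7.52, 1.31 and 15.4 CPM in the aspirin mice and 4.03, 1.497 and 2.76 CPM in the controls. Aspirin replicate 2 lay below all controls and the other 2 aspirin libraries above them. Against the controls, 9 of 9 tip cell and sprouting genes were lower in the hydrogel mice (median -0.73) and 6 of 9 in the aspirin mice (median -0.97). Of these 0 of 9 passed the adjusted threshold in edgeR in either comparison. By sign, 9 of 10 capillary, 8 of 10 arterial and 5 of 7 lymphatic genes were lower with aspirin than in the controls. Between the hydrogel and aspirin mice the lists differed. Higher with hydrogel were 6 of 10 capillary (median 0.31), 7 of 10 arterial (0.27), 5 of 9 tip cell (0.24) and 2 of 7 lymphatic genes (-0.22).

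Immediate early genes other than Apold1 gave no common direction with aspirin, with 8 of 19 lower and a median of 0.05, and 17 of 19 lower in the hydrogel mice with a median of -0.49, both against the controls. Nr4a1, an immediate early nuclear receptor, had 136, 146 and 242 CPM in the hydrogel mice, 40.4, 73.6 and 89.1 CPM in the aspirin mice and 135, 345 and 191 CPM in the controls. It was lower in the aspirin mice than in both other groups in every library, and its hydrogel libraries overlapped the controls, which those of Apold1 did not. Junb, a subunit of AP-1, had the smallest p of this list in the hydrogel mice against the controls. Its levels were 13.4, 22.5 and 7.04 CPM in the hydrogel mice, 44.8, 24.3 and 38.9 CPM in the aspirin mice and 31.3, 24.9 and 30.5 CPM in the controls. The hydrogel libraries of Junb lay below all others. Fosb went the other way, with 8.15, 27.2 and 14.2 CPM in the hydrogel mice, above all controls (6.86, 6.61 and 1.19 CPM). Its log2 fold change there was 1.75 ± 0.75 (adjusted p = 0.987 in edgeR), the highest of this list. The aspirin mice had 12.6, 5.90 and 2.89 CPM of Fosb.

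Other cell types of muscle moved with the groups too, and their part in the members' levels was not tested. Leukocyte genes (10 of 11 tested) summed to 396 to 1057 CPM in the hydrogel mice, 1092 to 2612 CPM in the aspirin mice and 437 to 1310 CPM in the controls. Pericyte and smooth muscle genes (12 of 12 tested) summed to 718 to 859 CPM in the hydrogel mice, 392 to 694 CPM in the aspirin mice and 727 to 841 CPM in the controls. Aspirin mice were thus highest in the leukocyte sum in 2 of 3 libraries and lowest in the pericyte sum in all 3. Adipocyte genes (6 of 6 tested) summed to 309 to 1535 CPM in the hydrogel mice, 276 to 742 CPM in the aspirin mice and 1381 to 2015 CPM in the controls. The 37 other members summed to 996 to 1384 CPM in the hydrogel mice, 733 to 883 CPM in the aspirin mice and 1222 to 1835 CPM in the controls, with the aspirin mice below both other groups. Fibroblast genes (7 of 7 tested) summed to 1647 to 2380 CPM in the hydrogel mice, 2311 to 3818 CPM in the aspirin mice and 2246 to 3562 CPM in the controls, and platelet genes (5 of 5 tested) to 13.7 to 23.5 CPM, 24.9 to 66.7 CPM and 19.6 to 34.6 CPM in the same order of groups. No marker of these 5 cell types was at 0 in all libraries.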

How the data were processed

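Libraries were prepared from leg muscle of 9 mice, using a SMARTER kit on 1 µg RNA each (per the labels' protocols). Per the file headers and values, the authors deposited whole-number counts per gene, not normalised. FPKM values of those genes were deposited beside them. Reads were placed on mm10, per the submitters' processing notes. The sources used here do not name the aligner, counting tool, annotation or strand setting. In 10432 genes, 99.2% of count-to-FPKM ratios lay within 1% of 1 constant per gene and library. FPKM served only for levels between genes; coordinates are 1-based, from GENCODE vM21.

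Groups follow the treatment labels, 3 mice each. Comparisons used the robust quasi-likelihood test of edgeR 4.0.16 (R 4.3.3). All 9 libraries entered 1 model that held group alone, with TMM scaling, filterByExpr (minimum count 10, total 15) and Benjamini-Hochberg adjustment over 18259 genes at 0.05. DESeq2 1.42.0, limma-voom (limma 3.58.1), other scalings and filters, the replicate block and left-out libraries were alternatives. Intervals are 95%. The test was tested on simulated counts. No 2 libraries agreed within sampling noise (smallest chi-square per degree of freedom 74.6). A gene without counts lies below 0.0554 to 0.100 CPM (3 counts per library; counting error only).

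The 38 members, the other lists and the tests were chosen with earlier results of these data known. Named genes are the members, with Apold1 and Cdh5 in full; up to 4 genes of each further list by smallest unadjusted p in the comparison described; and the 5 genes most alike to Apold1, widened to 8 by ties. Where the 2 groups compared share replicate numbers, same-numbered aspirin and control libraries deviated together (correlations of 0.62, 0.13 and 0.26), above a fixed limit of 0.1 in every pair, although the labels say nothing of pairing. Differently numbered libraries of these 2 groups had correlations of -0.53 to 0.42, a range that overlaps the same-numbered values. These correlations therefore do not establish a pairing. The fits reported leave replicate numbers out, and the replicate block was run as an alternative. Other pairs of groups did not meet that limit.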

Additional observations from a re-analysis of the deposited data

How the results depend on the processing

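DESeq2 called 82, 13 and 147 genes where edgeR called 0, in aspirin against control, hydrogel against control and hydrogel against aspirin, and 4, 1 and 1 members in the same order of comparisons. With DESeq2 the log2 fold changes of Apold1 against the controls were -1.88 in the hydrogel mice and -2.22 in the aspirin mice, and that of Cdh5 in the aspirin mice was -1.50, each past the adjusted threshold. Between the hydrogel and aspirin mice, Apold1 was at 0.35 with TMM, -0.14 with library size alone, -0.13 scaled by the 37 other members, and -0.013 to 0.57 with 1 library left out (lowest without Aspirin+hydrogel replicate 2); the cause was not tested. The members' median in that comparison was 0.013 with library size alone. With library size alone, the median over all genes was 0.27 (aspirin against control), -0.25 (hydrogel against control) and -0.51 (hydrogel against aspirin); relative to it the members' median was -0.90, -0.26 and 0.53, against -0.91, -0.28 and 0.44 with TMM. Leaving out 1 library gave 0 to 2 genes called in hydrogel against aspirin (2 without Aspirin replicate 3) and 0 in the other comparisons.

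With the replicate block, edgeR called 0 genes in aspirin against control, 0 in hydrogel against control and 1 in hydrogel against aspirin, and 0 members in each; Apold1 was at -2.20 in aspirin against control (adjusted p = 0.475 in edgeR). The block changed no other call. Apold1 had the lowest fold change of the 38 members against the controls in both treated groups under all settings run for the members, except that it ranked 2 in aspirin against control without Aspirin replicate 3. The choice to leave out Aspirin replicate 1 and Aspirin+hydrogel replicate 3 together was made after seeing the data. With 3 mice a group and a common biological coefficient of variation of 0.503, intervals of 1 gene typically span more than 1 log2 unit.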
